A study of Mus musculus with 8 samples.

Results

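The ileal bile acid genes are a set of 7 genes that carry bile acids across the enterocyte or sense them: Slc10a2, Fabp6, Slc51a, Slc51b, Nr1h4, Nr0b2 and Fgf15. They are described here together with the lactate cotransporter gene Slc5a12. Members were chosen by gene symbol: every probe set whose only symbol in the platform annotation was one of these 8 names. All 8 genes were on the array, of 18193 genes with a probe set of their own, and they had 9 probe sets of the 45037 tested. Slc5a12 had 2 probe sets and each of the others had 1.

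The tested mice were Pdx1flox/flox;VilCre males aged 6 months (knockout, 4 mice), in which Pdx1 exon 2 is flanked by loxP sites and Cre is driven by a 12.4 kb piece of the villin 1 promoter. They were compared with Pdx1flox/flox brothers of the same age without a Cre transgene named in their genotype (control, 4 mice). Both groups therefore carried the floxed alleles, and both ate a diet with 4.5% fat. RNA came from whole tissue, the 5 cm of small intestine next to the pylorus, and each mouse was hybridised to a single array. Since villin drives Cre in epithelium, muscle, nerve and immune cells in the tissue were not targeted. In such tissue, fewer cells of a type and less RNA per cell cannot be told apart.

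In textbook physiology, conjugated bile acids are reclaimed in the ileum, at the far end of the small intestine. There SLC10A2 takes them up with sodium at the brush border, FABP6 binds them in the cytosol, and the pair SLC51A and SLC51B lets them out at the basal side. Inside the cell they activate the nuclear receptor FXR, the product of Nr1h4, which induces Nr0b2, Fabp6, both Slc51 genes and Fgf15. The hormone FGF15 travels to the liver and represses bile acid synthesis. SLC5A12 belongs to a different family. It is a low-affinity sodium-coupled carrier of lactate and other monocarboxylates, known from the apical face of intestinal and kidney epithelium.

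Array medians lay between 5.23 and 5.27 on the deposited log2 scale, the lower quartiles between 3.87 and 3.93, and the upper quartiles between 7.45 and 7.54. The brighter Pdx1 probe set read 6.05, 5.91, 6.18 and 5.58 in knockouts 1 to 4, against 8.33, 8.61, 8.16 and 8.98 in controls 1 to 4. Pdx1 was thus lower in every knockout array, a log2 difference of -2.59 (adjusted p = 0.000416 in limma). The labelled tissue was borne out by its markers, with a mean level of 9 epithelial markers of 12.43 to 12.62 in knockout and 12.38 to 12.45 in control arrays. Exocrine pancreas markers were also bright, and so were some gastric ones. The mean of 10 exocrine pancreas markers ran from 12.79 to 13.83 in knockout and from 11.81 to 14.28 in control arrays. The mean of 7 gastric markers ran from 9.10 to 9.42 in knockout and from 8.96 to 9.93 in control arrays. Knockout 3 and control 2 stood apart from the rest: across probe sets, their deviations from their own group means correlated with r = 0.60, the highest of the 16 knockout and control pairs. These were also the arrays with the highest gastric marker mean of their groups.

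No bile acid gene and neither Slc5a12 probe set passed the test between knockout and control. In limma, 0 of the 9 probe sets had an adjusted p under 0.05, against 0.0422% of all 45037 probe sets. An ordinary linear model also called 0. At an unadjusted p under 0.05 there were 4 of 9 in limma, 3 with a higher and 1 with a lower mean in the knockout, while 7.13% of all probe sets met that mark. The ordinary linear model put 3 of the 9 under it. Both Slc5a12 probe sets were counted in either fit, so 1 gene enters these counts more than once. The members were chosen with earlier results of these data known, so the counts are no independent evidence. The largest difference was that of Slc5a12. In 1 of the 9 the knockout and control arrays did not overlap, again a probe set of Slc5a12, and 4.43% of all probe sets had such separated groups. The median log2 difference of the 9 was 0.081, and 6 of them were above 0. Over all 18193 genes on the array, each by its brightest probe set, the median was 0.0046 and 51.6% were above 0.

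**Figure D1:**
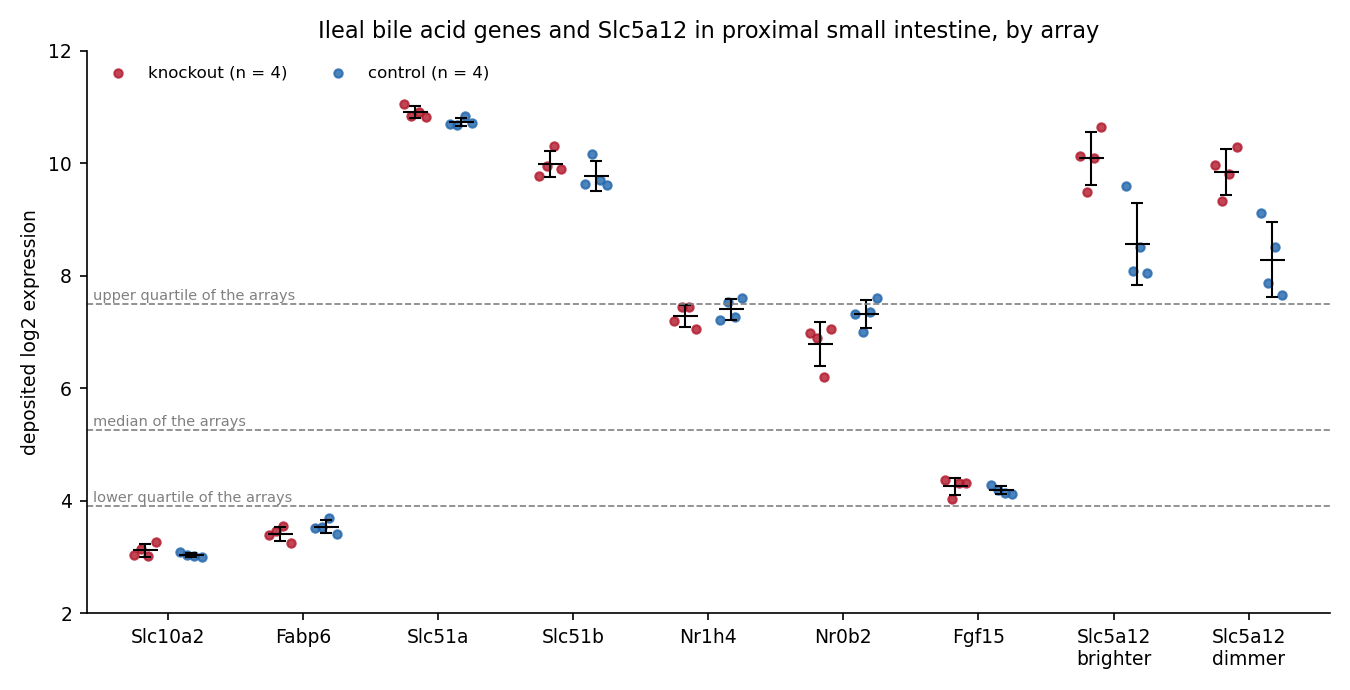
Deposited log2 expression of the 9 member probe sets, with a point for each array, knockout in red on the left of each pair and control in blue on the right. Horizontal marks and bars give the mean and SD of 4 arrays, and dashed lines give the mid-range of the quartiles over the 8 arrays. Slc10a2 and Fabp6 sat below the lower quartile on all arrays, while Slc51a, Slc51b and Slc5a12 sat above the upper one.

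The bile acid carrier of the brush border and the bile acid binder of the cytosol read near the bottom of the scale in both genotypes. Slc10a2 read 3.04, 3.14, 3.02 and 3.27 in knockouts 1 to 4 and 3.09, 3.04, 3.02 and 3.0 in controls 1 to 4. The groups overlapped, and all 8 values lay below the lower quartile of their arrays. The log2 difference was 0.081, with a 95% interval of -0.080 to 0.24 (adjusted p = 0.852 in limma).

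Fabp6 likewise stayed below the lower quartile of every array. It read 3.39, 3.45, 3.55 and 3.24 in knockouts 1 to 4, against 3.51, 3.54, 3.69 and 3.41 in controls 1 to 4. Its log2 difference was -0.12, with an interval of -0.32 to 0.070 (adjusted p = 0.799 in limma). The deposited table holds no detection calls, so these readings are not shown to lie above background, and a difference in such dim probe sets can be understated. For scale, 6 genes known from the kidney tubule, an organ not sampled, had single readings between 3.22 and 6.15.

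The upstream sequences of these 2 genes are shown because they carry letters that match a textbook binding motif, and those of Slc51a and Slc51b because their probe sets are bright on the same arrays. Each is the 250 bases before the gene's start, 5′ to 3′ on the gene's strand, from RefSeq for GRCm38.p6. The promoter table held 6 of the 8 members. Capitals mark an FXR-type inverted repeat, AGGTCANTGACCT with up to 2 mismatches, or the homeodomain core TAATTA. Both motifs read the same on either strand, and no matches overlapped.
Slc10a2, chr8:5105288-5105537, minus strand: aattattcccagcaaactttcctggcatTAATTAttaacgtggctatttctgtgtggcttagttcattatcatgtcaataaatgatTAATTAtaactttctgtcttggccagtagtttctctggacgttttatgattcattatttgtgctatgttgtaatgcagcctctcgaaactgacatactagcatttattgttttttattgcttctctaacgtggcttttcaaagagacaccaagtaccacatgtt
Fabp6, chr11:43601563-43601812, minus strand: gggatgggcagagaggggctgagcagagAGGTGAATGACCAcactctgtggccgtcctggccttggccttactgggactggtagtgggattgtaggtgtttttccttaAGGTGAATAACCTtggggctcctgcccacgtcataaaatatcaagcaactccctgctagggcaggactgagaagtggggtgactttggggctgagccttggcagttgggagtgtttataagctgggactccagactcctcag
Slc51a, chr16:32487880-32488129, minus strand: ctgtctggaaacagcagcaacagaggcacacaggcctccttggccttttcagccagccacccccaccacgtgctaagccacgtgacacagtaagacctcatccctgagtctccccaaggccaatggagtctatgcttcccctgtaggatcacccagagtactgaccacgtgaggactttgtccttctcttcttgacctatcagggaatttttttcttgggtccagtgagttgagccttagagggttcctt
Slc51b, chr9:65422774-65423023, minus strand: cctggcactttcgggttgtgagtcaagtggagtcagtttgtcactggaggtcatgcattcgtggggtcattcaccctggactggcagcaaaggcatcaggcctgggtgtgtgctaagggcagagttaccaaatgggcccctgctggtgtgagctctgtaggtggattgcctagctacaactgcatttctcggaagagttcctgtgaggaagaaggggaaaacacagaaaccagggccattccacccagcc

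Fabp6 held 2 matches to the inverted repeat, AGGTGAATGACCA starting 222 bases before the gene's start and AGGTGAATAACCT starting 142 bases before it, each with 2 mismatches. Such a match was found in 0.959% of 32851 promoters of the same length. Slc10a2 held the homeodomain core 2 times, starting 222 and 164 bases before the start, and 4.84% of promoters held it at least once. Neither motif was in the windows of Slc51a, Slc51b, Nr1h4 or Nr0b2. Sites outside the window, or with more mismatches than allowed, would be missed. These are matches of letters and were not tested as binding sites.

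Both subunits of the basolateral exporter were bright in every array. Slc51a encodes the larger subunit, and its probe set read 11.06, 10.84, 10.91 and 10.82 in knockouts 1 to 4, against 10.70, 10.68, 10.83 and 10.72 in controls 1 to 4. Knockout readings were slightly higher, but control 3 reached above knockout 4, so the groups overlapped. On the log2 scale they differed by 0.18, with an interval of 0.010 to 0.34 (unadjusted p = 0.0399, adjusted p = 0.689 in limma).

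Slc51b encodes the small partner subunit that the exporter needs to reach the membrane. It read 9.77, 9.95, 10.31 and 9.91 in knockouts 1 to 4 and 9.64, 10.17, 9.70 and 9.61 in controls 1 to 4. Knockout 3 and control 2 had the highest value of their groups, and control 2 exceeded 3 of the 4 knockouts. Its mean differed by 0.21 on the log2 scale, with an interval of -0.11 to 0.53 (adjusted p = 0.796 in limma). It was 0.10 without knockout 3, 0.34 without control 2 and 0.23 without both, and it did not pass in any of these fits.

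The receptor gene gave overlapping values. Nr1h4, the gene of FXR, read 7.19, 7.44, 7.45 and 7.06 in knockouts 1 to 4, against 7.22, 7.53, 7.27 and 7.60 in controls 1 to 4. They lay between the median and just above the upper quartile of the arrays. The log2 difference was -0.12, with an interval of -0.38 to 0.14 (adjusted p = 0.869 in limma).

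Nr0b2 had the only lower mean among the 4 probe sets with an unadjusted p under 0.05. It encodes SHP, an FXR-induced corepressor that lacks a DNA-binding domain. Its readings were 6.98, 6.89, 6.20 and 7.04 in knockouts 1 to 4, against 7.31, 7.0, 7.35 and 7.60 in controls 1 to 4. Only knockout 4 reached above the lowest control, control 2. The log2 difference was -0.54, with an interval of -0.95 to -0.13 (unadjusted p = 0.0153, adjusted p = 0.630 in limma). Knockout 3 was the lowest array and control 2 the lowest control, the same 2 arrays that were highest for Slc51b in their groups. Without knockout 3 the difference was -0.34, and without both arrays it was -0.45 (adjusted p = 0.731 in limma).

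Fgf15, the hormone gene of the set, was dim throughout. It read 4.37, 4.03, 4.31 and 4.31 in knockouts 1 to 4 and 4.29, 4.19, 4.14 and 4.12 in controls 1 to 4. All values lay between the lower quartile and the median of their arrays, and the groups overlapped. The log2 difference was 0.070, with an interval of -0.12 to 0.26 (adjusted p = 0.896 in limma).

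**Figure D2:**
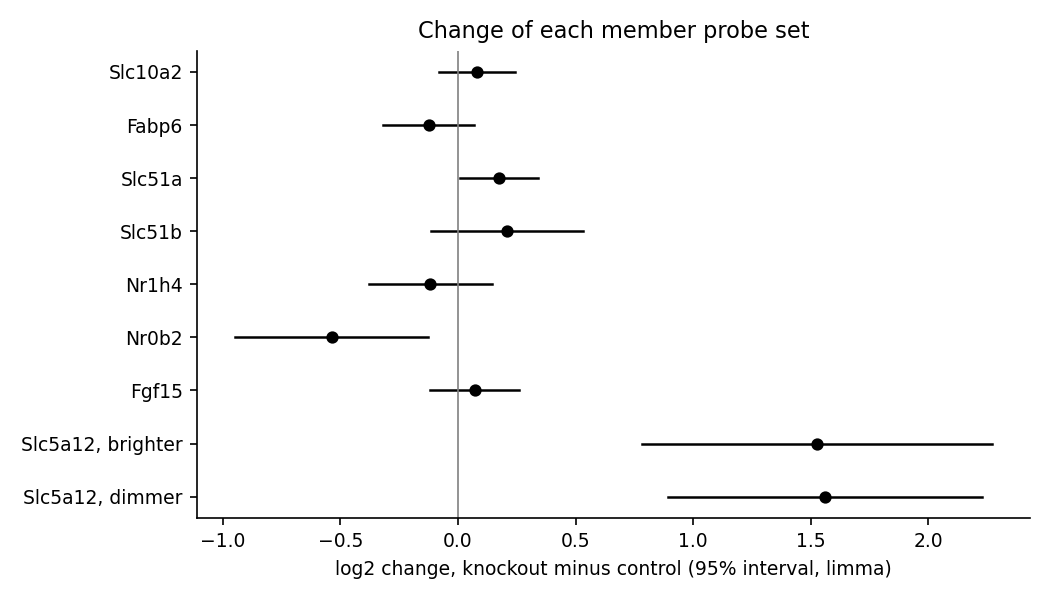
Log2 difference, knockout minus control, of each member probe set (point) with its 95% interval from limma (line), from 4 arrays a group. The intervals are not adjusted for the number of probe sets. Both Slc5a12 probe sets lie above 1, and the 7 bile acid genes lie between -0.54 and 0.21.

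Slc5a12 had the largest difference of the set and one of the largest increases on the array, with a wide spread between mice. Its dimmer probe set read 9.97, 9.32, 9.80 and 10.29 in knockouts 1 to 4, against 9.11, 7.86, 8.51 and 7.66 in controls 1 to 4. Every knockout array was above every control array, with a gap of 0.21 between knockout 2 and control 1. Knockout arrays averaged 9.85 ± 0.40 and control arrays 8.29 ± 0.66 (SD over 4 mice), a log2 difference of 1.56 with an SE of 0.30 in limma. This is 2.95-fold, with a 95% interval of 1.86 to 4.68. In limma the unadjusted p was 0.000370 and the adjusted p 0.294.

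The brighter Slc5a12 probe set put the mice of each group in the same order. It read 10.13, 9.49, 10.09 and 10.65 in knockouts 1 to 4 and 9.60, 8.08, 8.51 and 8.05 in controls 1 to 4. Here control 1 lay above knockout 2, so the groups overlapped. The difference on the log2 scale was 1.53, or 2.88-fold with an interval of 1.72 to 4.82 (adjusted p = 0.421 in limma). In each of the 8 arrays it exceeded the dimmer one, by 0.0025 to 0.48. Since they read the same gene on the same arrays, they are not independent measurements of the mice.

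By size, the Slc5a12 differences ranked 4 (dimmer) and 5 (brighter) among the increases over 45037 probe sets. By unadjusted p they ranked 56 and 103 in the same order, and the 19 called probe sets had unadjusted p up to 1.49e-05. The SD within groups was 0.55 and 0.61, against a median of 0.127 over all probe sets, and 99.2% and 99.4% of probe sets varied less. Control 1 was the highest control on both probe sets. Without it the differences were 1.84 and 1.87, with adjusted p of 0.0711 and 0.0538 in limma, so neither passed. These were the lowest adjusted p of any fit made. Leaving out any other single array gave a higher adjusted p than the fit of all 8 arrays, on both probe sets.

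Several measured features of the arrays can be set beside Slc5a12. Knockout 4 had the lowest reading of all arrays on both Pdx1 probe sets and the highest Slc5a12. The other knockouts did not keep this inverse order. Knockout 3 had the highest Pdx1 of the knockouts on both probe sets, but knockout 2 had their lowest Slc5a12. Among the controls the Pdx1 probe sets differed in their order. The brighter was highest in control 4, which had the lowest Slc5a12, and lowest in control 3. The dimmer read 6.46, 7.25, 6.83 and 7.06 in controls 1 to 4, so it was highest in control 2 and lowest in control 1, which had the highest Slc5a12. The mean of the pancreas markers, like the brighter Pdx1 probe set, was highest in control 4 (14.28) and lowest in control 3 (11.81). The dimmer Pdx1 probe set did not share these extremes. The part of pancreas in the Pdx1 readings was not tested. These comparisons were chosen after the values were seen. All 9 epithelial markers had a higher mean in the knockout, by 0.058 to 0.22, and for 2 of them, Vil1 and Krt20, the groups did not overlap. Of 7 enterocyte markers, 6 had a higher mean in the knockout, with Anpep the most at 0.43, and Alpi had a lower one, at -0.22. The groups did not overlap for 4 of these 7, against 4.35% of all genes: Fabp1, Fabp2 and Anpep were higher in the knockout and Alpi lower. Fabp1 and Fabp2 differed by only 0.11 each. All 8 smooth muscle markers also had a higher mean in the knockout, by 0.16 to 0.52, with overlap for each. The mean of the smooth muscle list ran from 9.51 to 9.97 in knockout and from 9.39 to 9.59 in control arrays. All 10 pancreas and all 7 gastric markers had a lower mean in the knockout. Of 9 hepatocyte markers, 6 had a lower mean and 3 a higher one, and Ttr was lower by 0.72 without overlap. The part of these cell types in the Slc5a12 difference was not tested. The mean of 6 kidney tubule markers was between 4.49 and 4.66 in knockout and between 4.55 and 4.83 in control arrays.

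By the rule for likeness, the genes that followed the brighter Slc5a12 probe set most closely over the 8 arrays were Clrn3 (r = 0.979), Marchf5 (r = 0.979) and Kat8 (r = 0.974). They were picked as the best 3 among 16847 probe sets with a mean of at least 6, so a high r is built into the choice. Their own log2 differences were 0.15, 0.14 and 0.058, and none passed in limma. For the dim members the same rule named Col12a1, Cyb5a and Tbxas1 beside Slc10a2. It named Clasrp, Tarbp2 and Iqca beside Fabp6, and Azin1, Idh3a and Lmod1 beside Fgf15. There it follows small variation, since these 3 probe sets spanned 0.27, 0.45 and 0.34 over the 8 arrays.

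**Figure D3:**
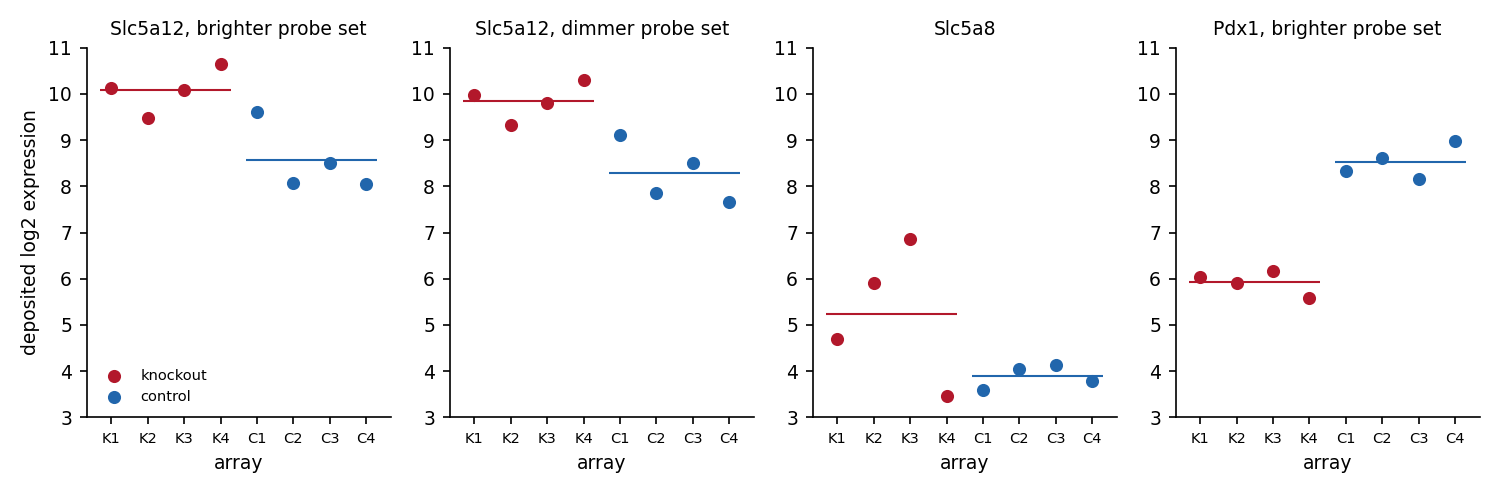
Deposited log2 expression of both Slc5a12 probe sets, of Slc5a8 and of the brighter Pdx1 probe set in each array, knockouts 1 to 4 (K, red) and controls 1 to 4 (C, blue), with the group means as lines. Slc5a12 was highest in K4, where Slc5a8 was lowest.

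Other genes of monocarboxylate and lactate handling, a list that holds enzymes as well as carriers, gave a mixed picture. Of 18 measured genes, 0 passed the test in limma, 13 had a higher mean in the knockout, and the median log2 difference was 0.083. Slc5a8 encodes the high-affinity relative of SLC5A12 and is known from the distal gut. It read 4.69, 5.90, 6.86 and 3.47 in knockouts 1 to 4, against 3.59, 4.05, 4.13 and 3.78 in controls 1 to 4. In 3 knockouts it was above every control, while knockout 4, with the highest Slc5a12, had the lowest Slc5a8 of all arrays. Its log2 difference was 1.34, with an interval of 0.074 to 2.62 (adjusted p = 0.689 in limma).

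Slc16a9, a member of the monocarboxylate transporter family, ran the other way. Its brightest probe set read 9.33, 8.75, 7.93 and 9.52 in knockouts 1 to 4, against 9.90, 9.58, 9.89 and 10.22 in controls 1 to 4. The groups did not overlap, and the log2 difference was -1.02 (adjusted p = 0.561 in limma). Its other 2 probe sets had differences of -0.91 and -0.99. The lactate exporter gene Slc16a3 had a difference of 0.44 (adjusted p = 0.694 in limma).

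Among the other sodium cotransporters of the SLC5 family, 0 of 12 genes passed in limma, 9 had a higher mean in the knockout, and the median was 0.15. The glucose carrier gene Slc5a1 had a difference of 0.22, and Slc5a11, which carries inositol, had 0.27. The mannose and glucose carrier gene Slc5a9 had 0.075 on its brightest probe set, and 0.079, 0.037 and 0.34 on the other 3 (lowest adjusted p = 0.617 in limma).

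Lists of genes around the bile acid cycle had medians close to that of all genes. Of 13 other genes of bile acid carriers and their relatives 0 passed in limma, with 8 above 0 and a median of 0.016. The canalicular export pump gene Abcb11, of liver, was dim, averaging 4.06 ± 0.080 in knockout arrays and 4.23 ± 0.076 in control arrays (SD over 4 mice), a difference of -0.17 without overlap (adjusted p = 0.688 in limma). The brightest probe set of Slc10a7 had 0.13, and its other 3 ran from -0.19 to 0.12. For the hepatic carrier gene Slco1b2 the brightest had -0.024, and the other 4 ran from -0.12 to 0.078. The export pumps of the gut, Abcc2 and Abcc3, had -0.048 and 0.031.

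Of 13 FXR partners and bile acid receptors 0 passed in limma, with 5 above 0 and a median of -0.0080. Vdr, the vitamin D receptor, which also binds lithocholic acid, had -0.41 on both of its probe sets without overlap (lowest adjusted p = 0.502 in limma). Nr5a2, which encodes the nuclear receptor LRH-1, had -0.20 on its brightest probe set, and its others ran from -0.14 to 0.0086. The coactivator gene Ncoa1 had -0.097 on its brightest, and -0.050 and -0.0030 on the others. For the FXR partner gene Rxra the brightest had 0.018, and the others had 0.014 and 0.0046. Among 18 other FXR and bile acid responsive genes 0 passed, 9 were above 0 and the median was 0.023. The sterol exporter pair Abcg5 and Abcg8 had 0.34 and 0.25, and Abcg5 was higher in every knockout array than in any control array (adjusted p = 0.520 in limma).

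The receptor side of the FGF15 axis and the synthesis enzymes, both known chiefly from liver, held no changed gene either. Of 8 FGF receptor and endocrine FGF genes 0 passed in limma, with 2 above 0 and a median of -0.065. Klb, the co-receptor that FGF15 needs, had -0.17 and -0.043 on its 2 probe sets. Fgfr4, its receptor, had 0.057 on its brightest probe set, and its other 4 ran from -0.10, without overlap, to 0.11. The brightest probe set of Fgfr1 had -0.13, while its other 2 had 0.32, without overlap (adjusted p = 0.507 in limma), and -0.067. For Fgfr2 the brightest had 0.019, and the other 2 had 0.17 and -0.037. Of 17 genes of bile acid synthesis and conjugation 0 passed, with 7 above 0 and a median of -0.048. Acox2, the peroxisomal oxidase that shortens the bile acid side chain, read 8.12, 7.95, 7.55 and 8.12 in knockouts 1 to 4, against 6.96, 7.33, 7.42 and 7.26 in controls 1 to 4. It was higher in every knockout array, by 0.69 (unadjusted p = 0.000530, adjusted p = 0.351 in limma). The rate-limiting enzyme gene Cyp7a1 had 0.014, Cyp46a1 had -0.24 and the thioesterase gene Acot8 had -0.094.

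Regional regulators were tested as well, since GATA4 in mouse keeps bile acid genes low in the upper intestine. Of 15 measured factors 0 passed in limma, with 8 above 0 and a median of 0.017. Gata4 read 9.63, 9.70, 9.96 and 9.31 in knockouts 1 to 4, against 9.74, 9.77, 9.84 and 9.73 in controls 1 to 4, a difference of -0.12 with overlap. Hnf4g had 0.28 and a dimmer Cdx2 probe set 0.23, both without overlap, while the brighter Cdx2 probe set had 0.064. Onecut2 had -0.26 without overlap (adjusted p = 0.662 in limma).

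Other genes known from the distal small intestine also gave 0 calls of 15, with 10 above 0 and a median of 0.067. Cubn, the ileal receptor for vitamin B12 with intrinsic factor, was named after its values were seen because it varied so widely. Its brighter probe set read 9.26, 8.03, 5.51 and 10.14 in knockouts 1 to 4, against 8.83, 5.61, 8.24 and 7.84 in controls 1 to 4. Knockout 3 and control 2, the 2 arrays that stood apart, were far below the rest, and knockout 4 and control 1 were the highest of their groups, as for Slc5a12. Its difference of 0.60 did not pass (adjusted p = 0.925 in limma). The brush border protease gene Mep1b had 0.21 without overlap, and the hormone gene Pyy had -0.50. Among 11 other lipid binding proteins 0 passed, with 4 above 0 and a median of -0.028. The retinol binder gene Rbp2 had 0.28 without overlap (adjusted p = 0.504 in limma), Fabp3 had -0.073 on its brighter and 0.23 on its dimmer probe set. Fabp4 had -0.028 on its brightest, and its other 3 ran from -0.18 to 0.14.

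**Figure D4:**
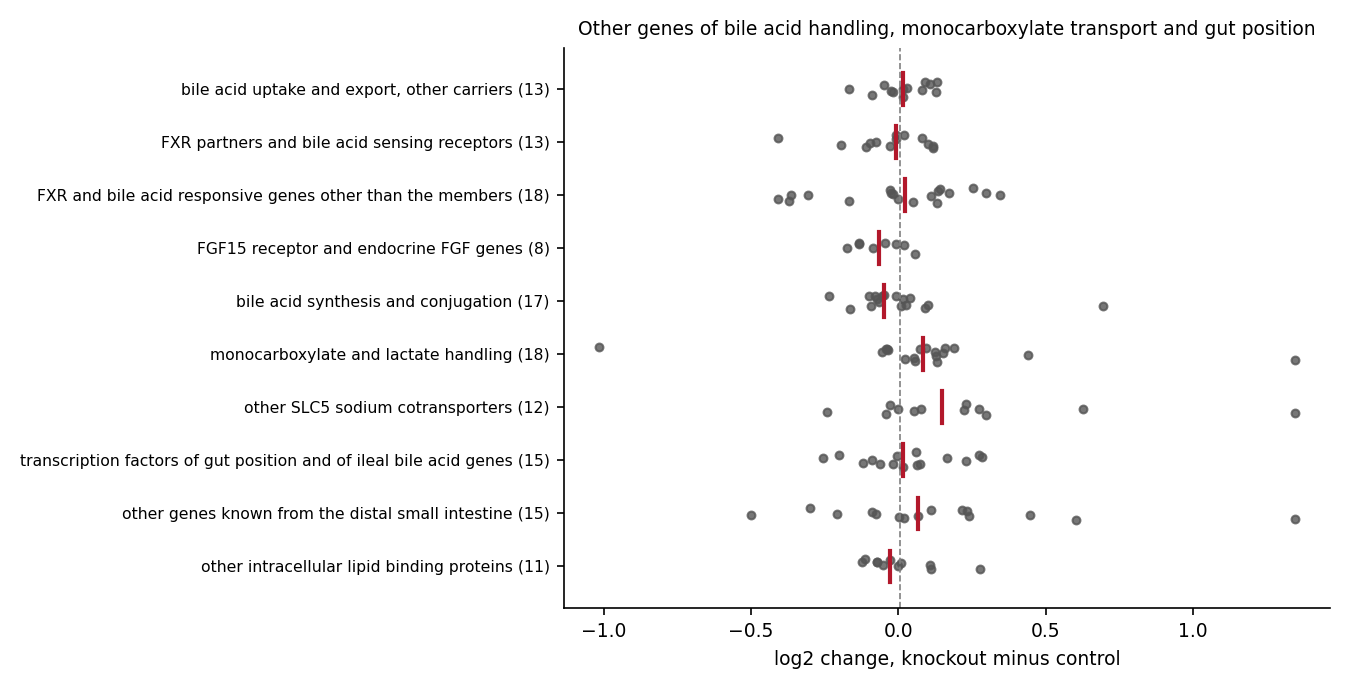
Log2 difference, knockout minus control, of each measured gene by its brightest probe set (points, spread vertically for legibility) in 10 lists, with the list median in red and the number of genes in parentheses. The dashed line is the median of all genes, 0.0046. Slc5a8, at 1.34, is in 3 of the lists.

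Over these 10 lists, which share some genes, 135 genes were measured with 256 probe sets, and 0 of the genes and 0 of the probe sets passed in limma, against 0.0660% of all genes. An ordinary linear model called 0 of the genes too. At an unadjusted p under 0.05 in limma there were 15 of 135, against 6.83% of all genes by their brightest probe set. In 12 of 135 the groups did not overlap, against 4.35% of all genes. These lists and the members were chosen with earlier results of these data known, so the counts describe the genes and are no independent evidence.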

How the data were processed

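Total RNA from whole proximal intestine was labelled as biotinylated cRNA and hybridised to Affymetrix arrays, per the labels' protocols. The authors deposited 1 table of log2 expression values per probe set and array. The submitters' processing notes name Partek 6.4 without a role. How background was corrected, probes were summarised and arrays were normalized is not given in the sources used here. Values ran from 2.55 to 14.83, from which the log2 scale was inferred. Array medians were almost equal, so a change common to all transcripts would not show. Arrays have no read depth, and their number limits the precision.

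Of 45101 probe sets, 64 array controls were left out. By GEO's platform annotation, 34945 carried 1 gene symbol, 932 carried several and 9160 carried none. All 9 member probe sets matched the RefSeq table of GRCm38.p6 by Entrez identifier. Knockout minus control was fitted in limma 3.58.1 (lmFit, eBayes; R 4.3.3), without filter, covariate or block. P-values are two-sided, and adjusted p-values are Benjamini-Hochberg over 45037 probe sets, with 0.05 as the threshold. Intervals are 95% intervals from the same fit. The labels call the mice biological replicates.

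Members and lists were chosen with earlier results of these data known. The text names all member probe sets, up to 3 genes of each list with the smallest p by any probe set, and the 3 genes most like Slc5a12, Slc10a2, Fabp6 and Fgf15. Further genes were added as background. A gene in a list counts by its brightest probe set. The scripts were tested on simulated data. Figures were drawn with matplotlib 3.10.9.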

Additional observations from a re-analysis of the deposited data

Results flagged for a closer look

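Slc51b in control 2 read 10.17, far from the other controls at 9.61 to 9.70. Its gap to the nearest control was 0.833 of the range of the group, just over Dixon's critical value at the 95% level for 4 samples. This was 1 of 70 groups examined, over 35 probe sets, and chance alone marks about 1 in 20.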

How the results depend on the processing

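The count of changed member probe sets was 0 in each alternative run, including the threshold of 0.1, and so was that of the 135 list genes. All member differences kept their direction and stayed short of the threshold in each fit that could be made. The Slc5a12 differences ranged from 1.35 to 1.84 (dimmer probe set) and from 1.34 to 1.87 (brighter), with adjusted p of 0.0711 to 0.783 and 0.0538 to 0.878 in limma and the ordinary linear model. Both extremes of size came from leaving out 1 sample. Nr0b2 ranged from -0.64 to -0.34 and Slc51a from 0.12 to 0.21. With values under 5 set to 5, Slc10a2, Fabp6 and Fgf15 had no value, and with a minimum mean of 5 they were not tested. Over all probe sets, 19 were changed, 4 with values under 5 set to 5, 2 in an ordinary linear model and 29 at a threshold of 0.1, where the cause was not tested except for the threshold itself. With 1 sample left out, the count was 13 to 20. A replicate block gave 24 changed probe sets and 0 members, with Slc5a12 at adjusted p of 0.192 (dimmer probe set, difference 1.56) and 0.300 (brighter, 1.53). Same-numbered deviations correlated with r of -0.18 to 0.076, and 0 of 4 knockouts were closest to the control of their number. With 4 pairs these correlations cannot decide whether the numbers pair the mice. The labels call the mice brothers without saying which share a litter. Signal near background limits Slc10a2, Fabp6 and Fgf15.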
